A study of Mus musculus with 15 samples.

Results

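The 10 periportal and bile duct genes Cyp2f2, Hsd17b13, Cyp17a1, Pigr, Cdh1, Sox9, Krt19, Krt7, Epcam and Spp1 were followed through pregnancy and through forced p21 expression in the mouse liver. They were chosen by name from a table of 21702 protein-coding genes, and all 10 had enough reads to be tested among 12172 genes. RNA was sequenced from whole liver of adult WT female mice in 5 groups of 3 libraries. The strain is C57BL/6 in the labels and C57BL/6N in the study's methods. Every mouse had received AAV8 by tail vein injection, which in the pregnant groups came before pregnancy. AAV8-null, which carries no transgene, was given to a non-pregnant (NP) group and to groups sampled at 8 and at 16 days post coitum (dpc), and AAV8-p21 was given to groups sampled at 8 and at 16 dpc. In AAV8-p21 the TBG promoter, which is active in hepatocytes, drives the mouse cell cycle inhibitor p21. Cells other than hepatocytes, including those of the bile ducts, were therefore not the intended target of the virus. There was no NP group with AAV8-p21.

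In the liver lobule, blood enters at the portal vein and leaves at the central vein, and hepatocytes along the way use different genes. Those near the portal vein carry out most of the urea synthesis, gluconeogenesis and amino acid breakdown, and they lie beside the bile ducts, which are lined by cholangiocytes. Cyp2f2 is a cytochrome P450 widely used as a periportal marker, Hsd17b13 is a dehydrogenase of the lipid droplet, Cyp17a1 is a steroid hydroxylase and lyase, and Pigr carries polymeric immunoglobulin through the cell into bile. Cdh1 encodes E-cadherin, which holds epithelial cells together and is stronger in periportal than in pericentral hepatocytes. Sox9 is a transcription factor of bile ducts and of a few hepatocytes beside them, Krt19 and Krt7 are keratins of cholangiocytes, Epcam is an adhesion protein of the same cells, and Spp1 (osteopontin) is a secreted protein made by cholangiocytes and, in other states, by macrophages and stellate cells. Whole-liver RNA carries no position, so fewer cells of a type and less RNA per cell cannot be told apart, and neither can a shift in zone and a change in every hepatocyte.

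Promoter windows from 250 bases before to 50 bases after a start site were found for 6 of the 10 genes in RefSeq (GRCm38.p6). Windows of Cyp17a1, Cdh1, Sox9 and Krt19 were not matched. Of the 6, Pigr fell at 16 dpc, and Spp1 was higher after AAV8-p21 without passing the main test described below. Cyp2f2 and Hsd17b13 tended to deviate in opposite directions between livers of the same group. The 4 windows below belong to these genes. They run 5′ to 3′ on the strand of the gene, and capitals mark matches to 8 short motifs searched on both strands.
Cyp2f2 promoter, chr7:27119705-27120004, plus strand: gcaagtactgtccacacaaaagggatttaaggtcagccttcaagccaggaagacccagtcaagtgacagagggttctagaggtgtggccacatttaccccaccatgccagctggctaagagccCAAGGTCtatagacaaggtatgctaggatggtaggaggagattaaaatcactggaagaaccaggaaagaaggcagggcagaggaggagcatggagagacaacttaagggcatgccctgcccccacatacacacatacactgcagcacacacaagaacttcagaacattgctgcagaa
Hsd17b13 promoter, chr5:103977339-103977638, minus strand: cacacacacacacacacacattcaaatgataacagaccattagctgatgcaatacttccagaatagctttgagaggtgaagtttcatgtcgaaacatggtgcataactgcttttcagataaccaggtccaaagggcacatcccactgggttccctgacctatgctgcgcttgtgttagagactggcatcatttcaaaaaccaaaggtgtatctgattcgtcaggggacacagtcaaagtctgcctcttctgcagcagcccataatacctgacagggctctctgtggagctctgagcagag
Pigr promoter, chr1:130826434-130826733, plus strand: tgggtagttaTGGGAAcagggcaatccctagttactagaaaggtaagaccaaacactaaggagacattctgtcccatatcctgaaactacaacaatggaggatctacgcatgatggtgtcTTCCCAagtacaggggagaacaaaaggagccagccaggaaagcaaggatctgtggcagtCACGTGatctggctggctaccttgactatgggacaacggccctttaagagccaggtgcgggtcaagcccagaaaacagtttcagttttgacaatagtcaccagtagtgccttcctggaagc
Spp1 promoter, chr5:104434861-104435160, plus strand, the upstream of 2 windows listed for Spp1: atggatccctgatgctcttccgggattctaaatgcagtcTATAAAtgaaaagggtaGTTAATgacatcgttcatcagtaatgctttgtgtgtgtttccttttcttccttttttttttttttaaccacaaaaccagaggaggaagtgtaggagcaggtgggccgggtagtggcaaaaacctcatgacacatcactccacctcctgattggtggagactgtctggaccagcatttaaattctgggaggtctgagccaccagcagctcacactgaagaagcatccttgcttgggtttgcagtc
The motifs were the TATA box (TATAAA), the RBPJ core (TGGGAA), the TEAD core (GGAATG), the HNF1 core (GTTAAT), an E-box (CACGTG), the LRH-1 core (CAAGGTC), a D-box (TTATGTAA) and an HNF4 core (CAAAGTCCA). Cyp2f2 held the LRH-1 core at position −127 from the start site, letters present in 3.96% of 32851 promoter windows. Pigr held the RBPJ core at −240 and, on the opposite strand, at −130, letters present in 25.6% of windows, and an E-box at −71, present in 7.15%. Spp1 held TATAAA at −211, present in 13.6% of windows, and the HNF1 core at −194, present in 7.1%. None of the 8 motifs was found in the Hsd17b13 window. TEAD, D-box and HNF4 letters occur in 14.7%, 0.938% and 0.475% of windows and were in none of the 4 windows shown. These are matches of letters only and do not show a site in use.

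The libraries held 12280709 to 17615185 counted reads, and the normalization factors of TMM lay between 0.682 and 1.25. The low factors were those of the 16 dpc livers, where the albumin transcript alone took 26.1% of counts with AAV8-null, against 10.4% in NP livers (means of 3 libraries). All levels below are TMM-normalized CPM, counts scaled to the size of the library, and 1 count was worth between 0.0494 and 0.0891 CPM depending on the library. Cdkn1a, the gene for p21, lay between 3.29 and 127 CPM in the 9 AAV8-null libraries and between 347 and 1664 CPM in the 6 AAV8-p21 libraries, so the labels and the virus matched in every library. The counts do not separate virus-derived from endogenous p21 RNA. Hepatocyte markers were abundant in every library, while markers of pancreatic acinar cells summed to at most 0.457 CPM. Of 17 other bile duct genes in the table, only 11 passed the filter, and the defining genes Sctr, Cftr and Cldn4 stayed between 0 and 6 counts in every library. In 3 libraries the mean correlation with the rest of their own group was lowest, NP replicate 1 (0.951), 8 dpc AAV8-null replicate 3 (0.958) and library 4 of the 16 dpc AAV8-p21 group (0.960), against 0.965 to 0.977 in the other libraries. The 5 proliferation genes Mki67, Top2a, Ccnb1, Cdk1 and Hmmr, which mark dividing cells, summed to 101 and 105 CPM in replicates 1 and 2 of the 8 dpc AAV8-null group and to 11.8 CPM in replicate 3.

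Per kilobase of exon, the 10 genes fell into an abundant set and a scarce set. The median over the 15 libraries, in CPM per kilobase of exon (RPKM), was 280 for Pigr, 225 for Cyp2f2, 134 for Hsd17b13, 58.1 for Cyp17a1 and 14.0 for Spp1. It was 2.06 for Cdh1, 0.427 for Epcam, 0.372 for Krt19, 0.271 for Sox9 and 0.0688 for Krt7. The ranges over all libraries of every pair of neighbours in that order overlapped. The 4 periportal genes had at least 923 counts in every library and Spp1 had 87 to 709. Cdh1 had 17 to 540 counts, Sox9 6 to 36, Epcam 0 to 22, Krt19 3 to 21 and Krt7 2 to 16, so the duct keratins, Epcam and Sox9 were measured from a handful of reads.

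**Figure D1:**
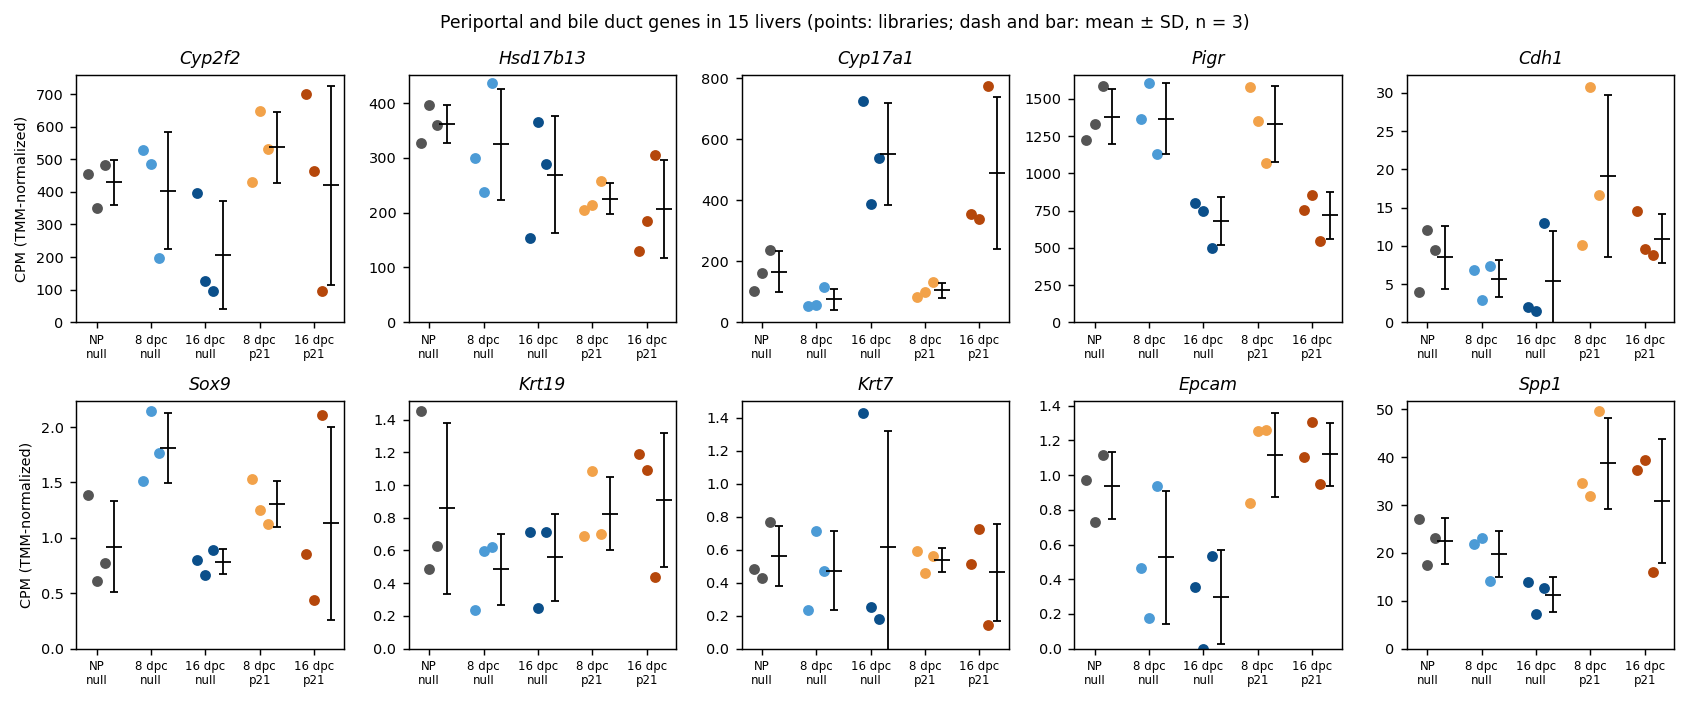
TMM-normalized CPM of each gene (vertical axes, linear and starting at 0) in the 15 livers by group (horizontal axes), with points for libraries and a dash and bar for the mean ± SD of 3 libraries, cut at 0. Cyp17a1 was highest and Pigr lowest in both 16 dpc groups, and Spp1 was higher in both AAV8-p21 groups than in the AAV8-null group of the same stage.

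The first question was how these genes change over a pregnancy in livers that received AAV8-null. At 16 dpc, Cyp17a1 rose and Pigr fell against both NP and 8 dpc livers, and no other gene of the 10 passed the test. Called here means an adjusted p under 0.05 in the quasi-likelihood test of edgeR, which was the case for 6.52% of all genes at 16 dpc against NP (3.71% higher and 2.82% lower) and for 6.87% at 16 dpc against 8 dpc (3.16% higher and 3.71% lower). Of the 10 genes, 2 were called in each of these comparisons. At 8 dpc against NP, 0 of the 10 genes and 0 of 12172 genes were called by edgeR (0%), with 1 of the 10 genes and 6.6% of all genes at an unadjusted p under 0.05.

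Cyp17a1 is a single gene on the minus strand at chr19:46667165-46673172 (GRCm38) with no other annotated gene over it. Its levels were 103, 161 and 235 CPM in NP livers, 53.7, 57.1 and 115 CPM at 8 dpc and 724, 389 and 539 CPM at 16 dpc, all with AAV8-null. The 8 dpc group overlapped the NP group through replicate 3, and all 16 dpc livers lay above both other groups. The mean went from 166 ± 66.4 CPM in NP livers to 75.2 ± 34.4 at 8 dpc and 550 ± 168 at 16 dpc (SD, n = 3).

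Against NP, Cyp17a1 was 3.31-fold higher at 16 dpc, a log2 fold change of 1.73 (SE 0.41, adjusted p = 0.0215 in edgeR). Against 8 dpc it was 7.32-fold higher, with a log2 fold change of 2.87 (SE 0.43, adjusted p = 0.00133). The difference of 8 dpc from NP, −1.14 (95% interval −2.01 to −0.28), did not pass the test (adjusted p = 0.489 in edgeR). Without the 3 libraries named above it was −1.84 and passed (adjusted p = 0.00725), a setting chosen after seeing the data. The rise against NP lost its call without NP replicate 1 (adjusted p = 0.0669) or 2 (0.0819), or 16 dpc replicate 1 (0.0669) or 3 (0.0506), in edgeR, while the rise against 8 dpc kept its call when any 1 of the 6 libraries was left out.

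AAV8-p21 livers showed a rise of Cyp17a1 between stages too. The 3 livers at 8 dpc had 83.3, 99.7 and 130 CPM and the 3 at 16 dpc had 354, 338 and 775 CPM, with no overlap. The log2 fold change was 2.23 (SE 0.42, adjusted p = 0.00859 in edgeR), where 3.32% of all genes were called (2.09% higher) and Cyp17a1 was the 1 call among the 10. It lost its call without 8 dpc AAV8-p21 replicate 1 (adjusted p = 0.0605). Between viruses at the same stage Cyp17a1 did not pass the test, with a log2 fold change of 0.47 (95% interval −0.38 to 1.33) at 8 dpc and −0.17 (−1.02 to 0.68) at 16 dpc.

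Pigr moved the other way. The gene lies on the plus strand at chr1:130826684-130852249, its window is the Pigr line above, and no other annotated gene overlaps it. NP livers had 1223, 1332 and 1585 CPM, 8 dpc livers 1368, 1609 and 1128 CPM, and 16 dpc livers 798, 750 and 499 CPM with AAV8-null. Every 16 dpc liver was below every NP and 8 dpc liver, and the NP and 8 dpc groups overlapped. The mean was 1380 ± 186, 1368 ± 241 and 682 ± 161 CPM in turn (SD, n = 3).

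The fall at 16 dpc was 2.02-fold against NP, a log2 fold change of −1.02 (SE 0.25, adjusted p = 0.0247 in edgeR), and 2.01-fold against 8 dpc, a log2 fold change of −1.0 (SE 0.25, adjusted p = 0.0269). The NP and 8 dpc groups differed by −0.01 (95% interval −0.54 to 0.51). With 3 livers a group the fall sat close to the threshold. Against NP it lost its call without NP replicate 2 (adjusted p = 0.0650) or 3 (0.0950), or 16 dpc replicate 2 (0.0556) or 3 (0.0945). Against 8 dpc it lost it without 8 dpc replicate 1 (0.0806) or 2 (0.125), or 16 dpc replicate 2 (0.0693) or 3 (0.0926), all in edgeR. When only the compared groups entered the model, the adjusted p was 0.0719 against NP and 0.0823 against 8 dpc.

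With AAV8-p21, Pigr had 1578, 1349 and 1071 CPM in the 8 dpc livers and 754, 857 and 545 CPM in the 16 dpc livers. The 2 groups did not overlap, and the log2 fold change of −0.89 (SE 0.25) missed the threshold (adjusted p = 0.0643 in edgeR). It was called without 8 dpc AAV8-p21 replicate 3 (adjusted p = 0.0478). Pigr did not pass the test between viruses at the same stage, and the interval was narrow, −0.56 to 0.49 around −0.04 at 8 dpc and −0.45 to 0.60 around 0.08 at 16 dpc (log2 fold change, 95%).

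Cyp2f2 and Hsd17b13, the other periportal genes, varied widely between livers of some groups, the 8 dpc AAV8-null group and both 16 dpc groups, and less in NP and 8 dpc AAV8-p21 livers. Cyp2f2 is at chr7:27119909-27133660 on the plus strand, with the antisense gene Gm15883 over it, and since the sources used here do not state whether counting used the strand, reads of the antisense gene cannot be told apart. Its levels were 455, 352 and 482 CPM in NP livers, 529, 486 and 198 CPM at 8 dpc and 398, 127 and 97.0 CPM at 16 dpc with AAV8-null. With AAV8-p21 they were 431, 649 and 531 CPM at 8 dpc and 702, 464 and 94.9 CPM at 16 dpc. A low level of under 200 CPM was seen in 8 dpc AAV8-null replicate 3, 16 dpc AAV8-null replicates 2 and 3 and library 4 of the 16 dpc AAV8-p21 group, and the highest liver of a group was 1.37-fold (NP) to 7.40-fold (16 dpc AAV8-p21) above the lowest.

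Hsd17b13, at chr5:103955440-103977410 on the minus strand, was at 328, 397 and 361 CPM in NP livers, 299, 238 and 436 CPM at 8 dpc and 154, 365 and 289 CPM at 16 dpc with AAV8-null. In the AAV8-p21 livers it reached 204, 214 and 259 CPM at 8 dpc, then 130, 185 and 305 CPM at 16 dpc. Within the 8 dpc AAV8-null group and both 16 dpc groups, the livers with low Cyp2f2 were the ones with the highest Hsd17b13. At 16 dpc against NP the log2 fold change was −1.05 (95% interval −2.36 to 0.25, adjusted p = 0.349 in edgeR) for Cyp2f2 and −0.43 (−1.14 to 0.29, adjusted p = 0.506) for Hsd17b13. For AAV8-p21 against AAV8-null at 16 dpc, Cyp2f2 gave 1.02 (−0.29 to 2.32) and Hsd17b13 gave −0.38 (−1.10 to 0.33). Neither gene was called by edgeR with TMM in any comparison.

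As deviations from the group means of log2 CPM, Cyp2f2 and Hsd17b13 ran against each other with r = −0.889 over 15 libraries, the lowest value of the 45 pairs among the 10 genes and described for that reason. Without removal of the group means r was −0.482. The points share library, depth and scaling, and the groups give them only 10 free deviations. The full order of the 3 livers was opposite for the 2 genes in 1 of the 5 groups, 16 dpc AAV8-p21, and in the 8 dpc AAV8-p21 group the liver with the lowest Cyp2f2 also had the lowest Hsd17b13. Of the 4 livers with low Cyp2f2, 8 dpc AAV8-null replicate 3 and library 4 of the 16 dpc AAV8-p21 group are among the 3 libraries with the lowest correlation named above. Without those 3, a setting chosen after seeing the data, r was −0.803 over 12 libraries. The ratio of Cyp2f2 to Hsd17b13 CPM ran from 0.311 in library 4 of the 16 dpc AAV8-p21 group to 5.39 in library 1 of the same group, while it stayed between 0.885 and 1.39 in NP livers. Spp1 went with Cyp2f2 (r = 0.758, the highest of the 45) and against Hsd17b13 (r = −0.738) on the same scale over all 15, and less closely without the 3 libraries (0.351 and −0.447). Within groups the proliferation sum moved with Cyp2f2 (r = 0.740), against Hsd17b13 (−0.744) and with Spp1 (0.780). The values for depth were −0.153, 0.233 and −0.497 in turn. Without the 3 libraries the values for the proliferation sum were 0.829, −0.680 and 0.769. Between the 8 dpc groups, mean Spp1 was 19.7 CPM with AAV8-null and 38.7 CPM with AAV8-p21, where the median proliferation sum was 101 and 12.8 CPM. The part of the proliferation sum in these patterns was not tested.

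**Figure D2:**
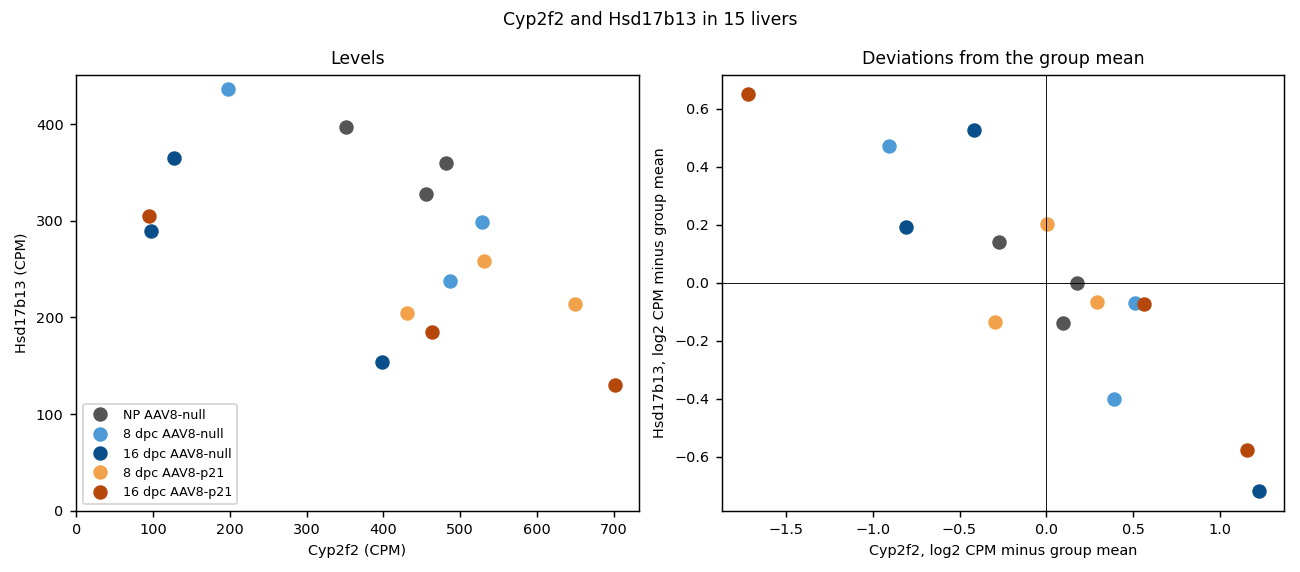
Hsd17b13 against Cyp2f2 in the 15 livers, as CPM on the left and as log2 CPM minus the mean of the own group on the right, with 1 point per library coloured by group. Livers with Cyp2f2 under 200 CPM held Hsd17b13 at 289 to 436 CPM. NP livers, with Cyp2f2 at 352 to 482 CPM, lay within that range of Hsd17b13 (328 to 397 CPM). The deviations on the right fall from upper left to lower right (r = −0.889, 15 libraries).

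Among the epithelial and duct genes, none was called in a comparison of stages. Spp1, at chr5:104435118-104441050 on the plus strand where the gene model Gm42793 overlaps it on the same strand, was at 27.1, 17.5 and 23.0 CPM in NP livers, 21.8, 23.2 and 14.2 CPM at 8 dpc and 14.0, 7.25 and 12.6 CPM at 16 dpc with AAV8-null. The 16 dpc livers lay below all NP and 8 dpc livers. The log2 fold change at 16 dpc was −1.0 (SE 0.34, adjusted p = 0.106 in edgeR) against NP and −0.80 (SE 0.34, adjusted p = 0.177) against 8 dpc. Epcam, at chr17:87635979-87651129, was at 0.970, 0.731 and 1.12 CPM in NP livers, 0.466, 0.179 and 0.936 CPM at 8 dpc and 0.357, 0 and 0.534 CPM at 16 dpc. The 0 allows up to 0.250 CPM, counting error only. Epcam at 16 dpc was below NP in every library, with a log2 fold change of −1.65 (95% interval −3.13 to −0.18, adjusted p = 0.184 in edgeR).

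Sox9, at chr11:112782224-112787760, was the 1 member whose 8 dpc and NP groups did not overlap. It had 1.39, 0.609 and 0.769 CPM in NP livers, 1.51, 2.14 and 1.77 CPM at 8 dpc and 0.802, 0.667 and 0.890 CPM at 16 dpc with AAV8-null. The 8 dpc livers were above all others of this virus. The log2 fold change was 0.97 (95% interval −0.01 to 1.96, adjusted p = 0.767 in edgeR) for 8 dpc against NP and −1.19 (−2.22 to −0.16, adjusted p = 0.154) for 16 dpc against 8 dpc. AAV8-p21 livers had 1.53, 1.26 and 1.12 CPM at 8 dpc and 0.852, 0.436 and 2.11 CPM at 16 dpc, which overlapped.

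Krt19 (chr11:100140810-100148665) and Krt7 (chr15:101411043-101430313, with the antisense gene Gm671 over it) gave overlapping NP, 8 dpc and 16 dpc groups. Krt19 ranged from 0.233 to 1.45 CPM and Krt7 from 0.178 to 1.43 CPM over the AAV8-null livers, the latter value in a single 16 dpc liver with 16 counts where the other two had 3 and 2. The interval of Krt7 reached past 2-fold both ways in all 6 comparisons of groups, as at 16 dpc against NP (0.14, 95% interval −1.36 to 1.63), and a change of that size in either direction lies within it. Cdh1 (chr8:106603351-106670246) was at 3.95, 12.1 and 9.44 CPM in NP livers, 6.81, 2.92 and 7.39 CPM at 8 dpc and 1.96, 1.42 and 12.99 CPM at 16 dpc with AAV8-null. Its 16 dpc group held both the lowest levels and the highest, and no stage difference passed the test.

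In counts, the groups did not overlap for 4 of the 10 genes at 16 dpc against NP (Cyp17a1 above and Pigr, Epcam and Spp1 below), where 24.6% of all genes did not overlap. At 16 dpc against 8 dpc it was also 4 genes (Cyp17a1 above and Pigr, Sox9 and Spp1 below), with 25.4% of all genes. At 8 dpc against NP it was 1 gene, Sox9, with 10.2% of all genes, and for AAV8-p21 at 16 dpc against 8 dpc it was 2 genes, Cyp17a1 above and Pigr below, with 22.9%. A single gene cannot go below p = 0.1 in the exact two-sided permutation test of 3 against 3 libraries, and the genes that did not overlap all had that value. The 4 periportal genes had a median log2 fold change of −0.72 at 16 dpc against NP and the 6 epithelial and duct genes −0.63, while the median of all genes was −0.03.

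The second question was what p21 expression in hepatocytes does to these genes at the same stage. None of the 10 was called at 8 dpc, where 0.0246% of all genes were called, or at 16 dpc, where 0.0739% were. At an unadjusted p under 0.05 there were 2 of the 10 genes at 8 dpc (Cdh1 and Spp1), against 5.18% of all genes, and 2 at 16 dpc (Epcam and Spp1), against 9.77%. The test of whether the virus effect differed between stages called none of the 10 genes and none of all genes (0%), with 0 of the 10 at an unadjusted p under 0.05 and 3.09% of all genes.

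Spp1 came closest to the threshold. Its levels were 34.6, 31.9 and 49.7 CPM at 8 dpc and 37.2, 39.5 and 15.9 CPM at 16 dpc with AAV8-p21, against the 14.2 to 23.2 CPM and 7.25 to 14.0 CPM given above for AAV8-null. At both stages all AAV8-p21 livers lay above all AAV8-null livers, by a small margin at 16 dpc, where library 4 had 15.9 CPM and the highest AAV8-null liver 14.0 CPM. The log2 fold change was 0.97 (95% interval 0.26 to 1.69, adjusted p = 0.723 in edgeR) at 8 dpc and 1.45 (0.71 to 2.19, adjusted p = 0.129) at 16 dpc. Without library 4 the 16 dpc difference was 1.76 and passed (adjusted p = 0.0303 in edgeR), and the Wald test of DESeq2, the tool of the study, called it with all libraries (1.45, adjusted p = 0.00954). The virus effect did not differ between stages beyond its error (0.48, 95% interval −0.54 to 1.49).

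An average of the virus effect over both stages was added after seeing the data. It called 0.131% of all genes and none of the 10. Spp1 was 2.32-fold higher with AAV8-p21, a log2 fold change of 1.21 (SE 0.24, adjusted p = 0.0644 in edgeR), and it passed with DESeq2 (adjusted p = 0.000647) and with limma voom (adjusted p = 0.0116). Over its alternatives without a library left out, the adjusted p of this value ran from 0.000647 to 0.0899. Epcam averaged 1.48 (SE 0.45, adjusted p = 0.211 in edgeR), and DESeq2 (0.0485) and limma voom (0.0441) put it just past the threshold. Cdh1 averaged 1.37 (SE 0.48, adjusted p = 0.268) and was called by none of the alternatives.

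Epcam was at 0.839, 1.26 and 1.26 CPM at 8 dpc and 1.11, 1.31 and 0.947 CPM at 16 dpc with AAV8-p21, from 13 to 22 counts, where AAV8-null livers had 0 to 18. At 16 dpc the groups did not overlap and the log2 fold change was 1.91 (95% interval 0.44 to 3.38, adjusted p = 0.370 in edgeR). At 8 dpc they overlapped through AAV8-null replicate 3, with 1.05 (−0.21 to 2.30). The AAV8-p21 means, 1.12 ± 0.242 CPM at 8 dpc and 1.12 ± 0.181 at 16 dpc, were close to 0.940 ± 0.196 CPM in NP livers (SD, n = 3).

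Cdh1 was at 10.1, 30.8 and 16.6 CPM at 8 dpc and 14.6, 9.52 and 8.74 CPM at 16 dpc with AAV8-p21. At 8 dpc all AAV8-p21 livers were above all AAV8-null livers, a log2 fold change of 1.74 (95% interval 0.30 to 3.19, adjusted p = 0.807 in edgeR). At 16 dpc the groups overlapped through AAV8-null replicate 3, which had 12.99 CPM, and the log2 fold change was 1.0 (−0.46 to 2.47). Krt19 with AAV8-p21 was at 0.691, 1.08 and 0.700 CPM at 8 dpc, just above the AAV8-null range of 0.233 to 0.624 CPM, and the interval of its log2 fold change of 0.75 ran from −0.42 to 1.93. Krt7 gave 0.19 (−1.26 to 1.63) at 8 dpc and −0.41 (−1.97 to 1.15) at 16 dpc, and Sox9 gave −0.46 (−1.41 to 0.48) and 0.53 (−0.54 to 1.61).

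**Figure D3:**
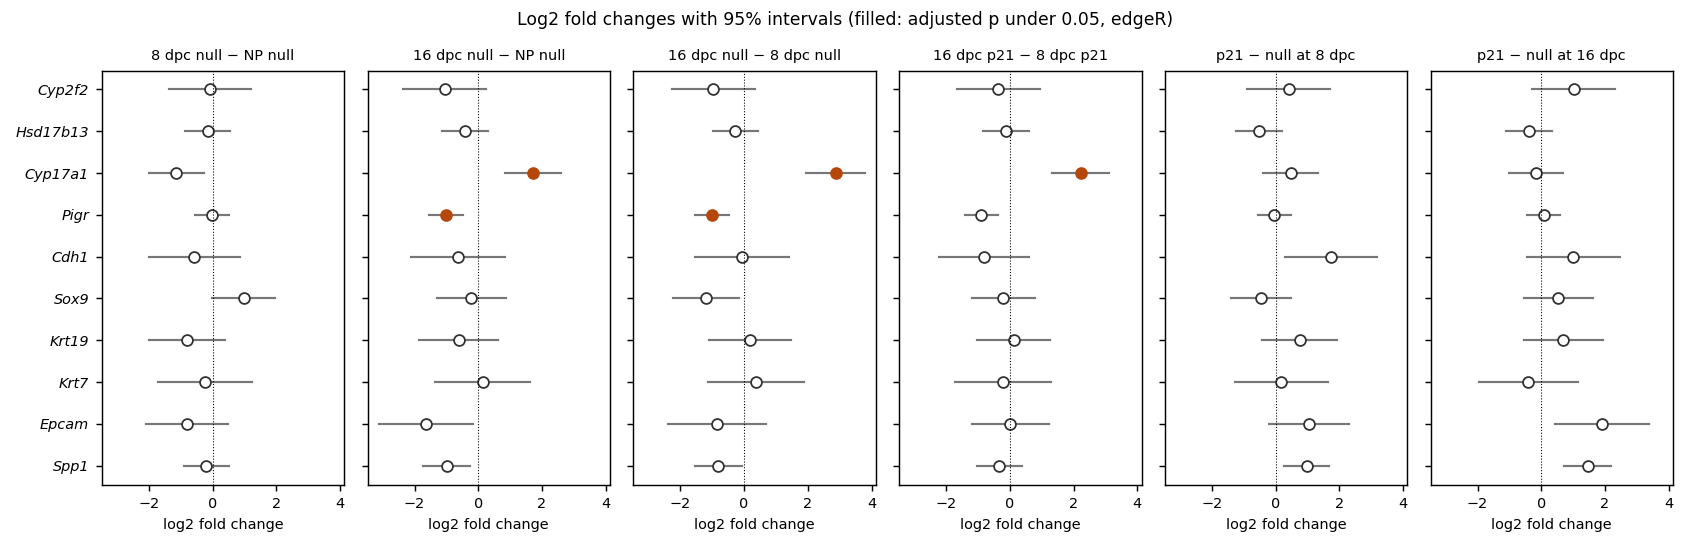
Log2 fold changes (horizontal axes) of the 10 genes with 95% intervals in 6 comparisons, from 1 edgeR model of 15 libraries, where filled points have an adjusted p under 0.05. Cyp17a1 and Pigr are filled at 16 dpc against NP and against 8 dpc with AAV8-null, Cyp17a1 alone is filled at 16 dpc against 8 dpc with AAV8-p21, and the intervals of Spp1 lie above 0 for both virus comparisons without passing the adjustment.

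As a set, 5 of the 6 epithelial and duct genes were higher with AAV8-p21 at 8 dpc (median log2 fold change 0.86) and 5 of 6 at 16 dpc (0.85), while the medians of all genes were −0.0023 and −0.00023. The exception was Sox9 at 8 dpc and Krt7 at 16 dpc. The 4 periportal genes split evenly at both stages, 2 higher and 2 lower, with medians of 0.19 and −0.05. Groups did not overlap for 3 of the 10 genes at 8 dpc (Cdh1, Krt19 and Spp1), against 10% of all genes (5.52% with AAV8-p21 above), and for 2 at 16 dpc (Epcam and Spp1), against 13.7% (6.65% above). In each of these 5 cases the AAV8-p21 livers were above.

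Other genes of the bile duct were set beside these. Of the 11 tested, 8 were higher with AAV8-p21 at 8 dpc (median log2 fold change 0.54) and 7 at 16 dpc (0.53), and none was called. Prom1, a membrane protein of progenitor and duct cells, and Slc5a1, a sodium and glucose transporter, had the largest values at 16 dpc, 3.05 (SE 0.96, adjusted p = 0.285 in edgeR) and 1.90 (SE 0.53, adjusted p = 0.232), and were named after their values were seen. The AAV8-p21 and AAV8-null livers overlapped at 16 dpc for Prom1 (2.84 to 21.7 against 0.583 to 3.11 CPM) and did not for Slc5a1 (0.681 to 1.16 against 0.0890 to 0.333 CPM). The summed level of the 17 genes in the table did not follow these counts, at 126 to 140 CPM with AAV8-null and 127 to 143 CPM with AAV8-p21 at 8 dpc and at 68.5 to 136 and 87.2 to 115 CPM at 16 dpc. The gene with the highest mean level in each group was Tm4sf4, which was lower with AAV8-p21 by 0.50 and 0.41 on the log2 scale (adjusted p = 1 and 0.732 in edgeR). Sctr was at 0 counts in every NP and 8 dpc AAV8-null liver.

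Markers of several other cell types were also higher with AAV8-p21 at 8 dpc. Of stellate cell and fibroblast markers all 7 were higher at that stage, with a median log2 fold change of 0.79 and none called. Their summed level was 177 to 242 CPM, against 99.7 to 161 CPM with AAV8-null and 184 to 197 CPM in NP livers. At 16 dpc 6 of 7 were higher with a median of 0.30, and the sums overlapped (220 to 239 against 191 to 258 CPM). All 5 red cell genes were higher at 8 dpc (median 0.59, none called), with sums of 114.5 to 200.4 CPM against 89.3 to 102 CPM, and 2 of 5 at 16 dpc (median −0.11). Of 6 endothelial markers 5 were higher at 8 dpc and none at 16 dpc, with medians of 0.27 and −0.20. Of 7 macrophage markers 6 were higher at 8 dpc and 5 at 16 dpc, with medians of 0.21 and 0.15. Against NP, all 7 stellate cell and fibroblast and all 6 endothelial markers were lower at 8 dpc with AAV8-null (medians −0.49 and −0.87). In that comparison 4 of 5 red cell and 5 of 7 macrophage markers were higher (medians 0.43 and 0.15), and none of these markers was called. Spp1 can come from macrophages and stellate cells as well, and the part of these cells in its level was not tested. Of 12 genes of Notch and YAP signalling, which guide hepatocytes and progenitors towards the bile duct fate, none was called between viruses, with medians of −0.21 at 8 dpc and 0.04 at 16 dpc.

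Other periportal genes were followed over the stages for comparison with Cyp17a1 and Pigr. Of 18 tested, 1 was called higher and 5 lower at 16 dpc against NP with AAV8-null, where 6.52% of all genes were called. The median of the 18 was −0.17. Aldh1b1, a mitochondrial aldehyde dehydrogenase, rose from 45.9 ± 9.91 to 149 ± 52.1 CPM (SD, n = 3), a log2 fold change of 1.70. Those that fell were Gls2, the liver glutaminase (−1.34), Hal, the first enzyme of histidine breakdown (−1.21), Ass1 of the urea cycle (−1.07), the ribonuclease gene Rnase4 (−1.13) and the phospholyase gene Etnppl (−1.99), the last with overlapping groups. Their adjusted p in edgeR lay between 0.00842 and 0.0288. Against 8 dpc, Aldh1b1 was called higher and Hal, Gls2, Rnase4 and Ctsc lower, where 6.87% of all genes were called. With AAV8-p21, Hal, Gls2 and Ctsc were called lower at 16 than at 8 dpc, by 1.43, 1.15 and 1.70 on the log2 scale. There 3.32% of all genes were called (1.23% lower). None of the 18 was called between viruses at either stage.

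Genes of the opposite end of the lobule changed at 16 dpc as well. Of 12 pericentral genes, Cyp2e1 (−1.14) and Lect2 (−1.96) were called lower and Slc1a2 (0.87) higher at 16 dpc against NP, where 6.52% of all genes were called. The median of the 12 was −0.41, and the adjusted p of these 3 was 0.00931 to 0.0308 in edgeR. Between viruses none was called, although 10 of 12 were higher with AAV8-p21 at 8 dpc and 11 of 12 at 16 dpc (medians 0.20 and 0.54). Among the other bile duct genes, Krt23, a keratin (−3.25), and Slc5a1 (−2.07) fell at 16 dpc against NP. Slc5a1 rested on 14 to 16 counts in NP livers and 1 to 4 at 16 dpc. Of the Notch and YAP genes, Amotl2 fell against NP (−1.08, adjusted p = 0.0488 in edgeR) and Ccn1 against 8 dpc (−1.37, adjusted p = 0.0320).

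**Figure D4:**
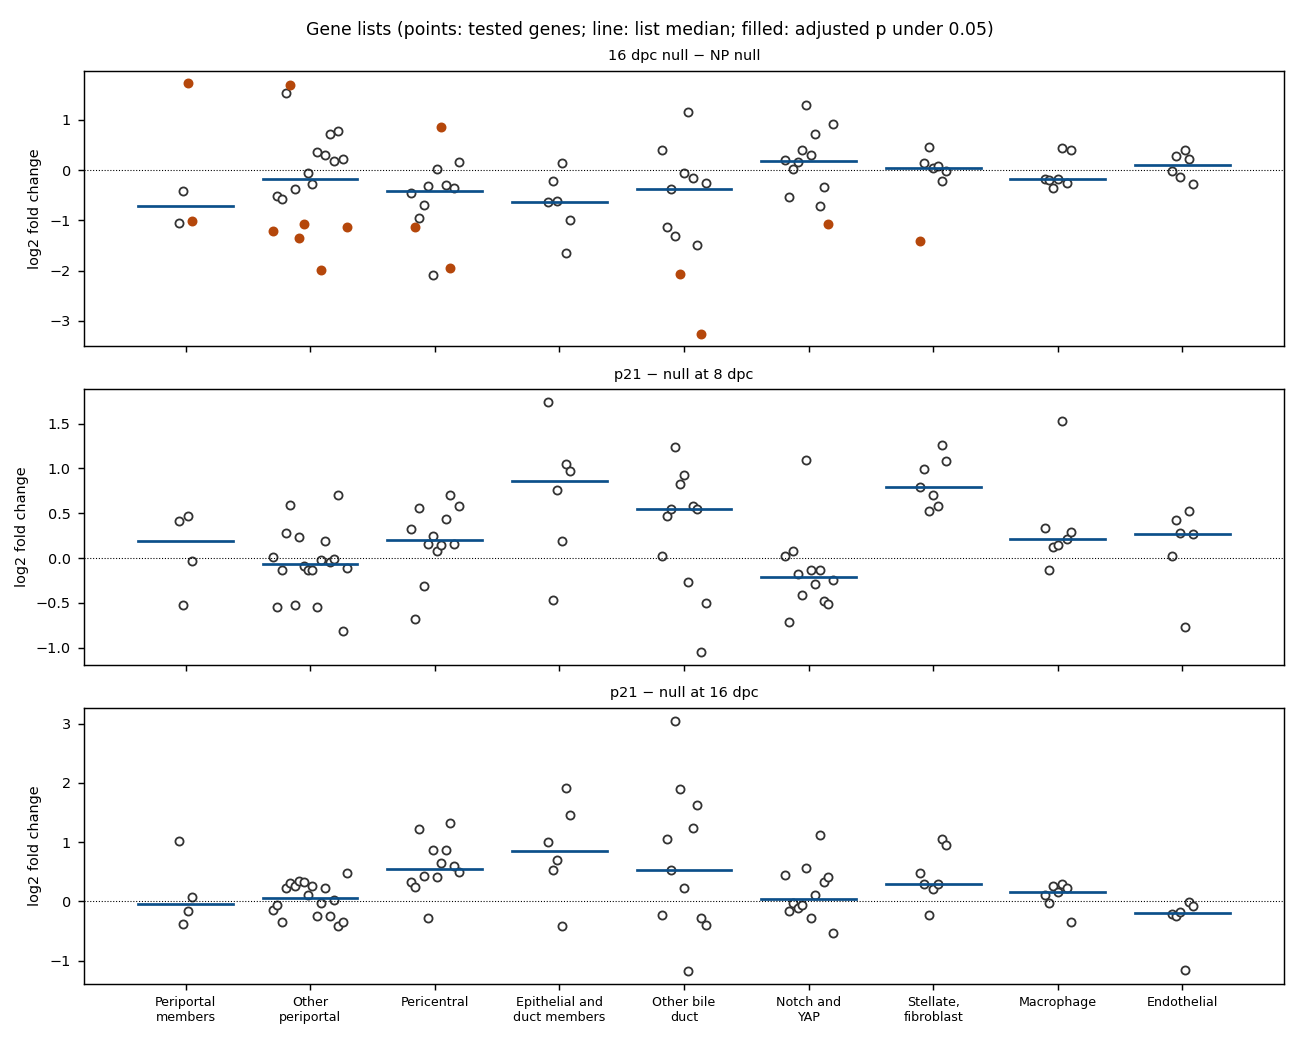
Log2 fold changes (vertical axes) of the tested genes in 9 lists (horizontal axis), in 3 comparisons, with a line for the median of each list and filled points for an adjusted p under 0.05 in edgeR. Calls appear only at 16 dpc against NP, and in the comparison of viruses at 8 dpc the list medians run from −0.21 (Notch and YAP) to 0.86 (epithelial and duct members), with 7 of the 9 above 0.

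By correlation of log2 CPM over the 15 libraries, the gene most like Cyp17a1 was As3mt, an arsenic methyltransferase (r = 0.935), followed by Apoa1, the main protein of high-density lipoprotein (r = 0.934). As3mt lies on the same chromosome as Cyp17a1, on the plus strand at chr19:46707458-46741099, with 34285 bases between them. Whether other genes lie in that gap was not examined. It was at 58.5 ± 5.28 CPM in NP livers, 51.8 ± 18.3 at 8 dpc and 117 ± 7.03 at 16 dpc with AAV8-null (SD, n = 3), and it rose at 16 dpc against NP (log2 fold change 0.996, adjusted p = 0.0208 in edgeR) and against 8 dpc (1.17, adjusted p = 0.0102). For AAV8-p21 at 16 dpc against 8 dpc its value was 0.89 (adjusted p = 0.0533). The genes most like the others were Tbc1d9b and Pex7 for Pigr (r = 0.963 and 0.960), Zfp983 and Nat8f1 for Cyp2f2 (0.936 and 0.935), Tm4sf4 and Pla2g12a for Hsd17b13 (0.935 and 0.894) and Cetn2 and Unc93b1 for Spp1 (0.911 and 0.893). For the 5 scarce genes the best match was weaker, 0.864 for Cdh1, 0.885 for Sox9, 0.838 for Epcam, 0.806 for Krt19 and 0.768 for Krt7. All these are the highest of 12172 values over the same libraries, which share depth and group, and are a description only.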

How the data were processed

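Whole-liver RNA was sequenced in 15 libraries of 5 groups. The authors made stranded single-end mRNA libraries, used cutadapt 1.14 for trimming, HISAT2 2.1.0 for alignment to mm10 and HTSeq 0.12.4 for counting on protein-coding genes (versions from the submitters' processing notes), and the deposited values are raw counts per gene without normalization. The strand setting of the counting is not given in the sources used here. Columns were matched to groups by their names. The library numbers of the 16 dpc AAV8-p21 group (1, 3 and 4) differ from the labels, so they were used without a number. The study's methods describe experiments in different mice, but neither they nor the labels tie each library to a mouse of its own, so p-values measure the spread between these libraries, which may be partly technical. Each library is called a liver.

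Differences were tested with edgeR 4.0.16 (R 4.3.3, quasi-likelihood), with TMM, filterByExpr (minimum count 10, in 3 or more libraries), all 15 libraries in 1 model with 10 residual degrees of freedom and Benjamini-Hochberg adjustment over 12172 genes, called at an adjusted p under 0.05. Single genes also had an exact two-sided permutation test on log2(CPM + 0.5). Intervals are 95% intervals of the model. Positions and exon lengths come from the GENCODE annotation of GRCm38, and promoters from RefSeq. The 10 genes and all lists were chosen with earlier results of these data known. Of the lists, called genes may be named, and 2 nearest genes by correlation for each of the 10. The alternatives were total counts without TMM, DESeq2 size factors, the DESeq2 1.42.0 Wald test, voom of limma 3.58.1 with sample weights, no filter, at least 10 counts in every library, a log2 fold change beyond 1 as well, the compared groups alone, a replicate block, and libraries left out. Of the bile duct list, 1 gene that is not named in the text is not reported here. The procedures were tested on simulated data.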

Additional observations from a re-analysis of the deposited data

How the results depend on the processing

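No result changed direction while past the threshold under any alternative. The largest shift came from scaling by total counts without TMM. The median log2 fold change of all genes was then −0.70 at 16 dpc against NP, −0.70 against 8 dpc and −0.59 between stages with AAV8-p21. With TMM these medians were −0.028, 0.0049 and −0.018. Scaling by total counts called 6, 6 and 3 of the 10 genes, where 50.5%, 53.5% and 35.5% of all genes were called. The calls gained with it were lower levels of Cyp2f2, Hsd17b13, Sox9, Epcam, Spp1 and, with AAV8-p21, Pigr. Cyp17a1 was called higher and Pigr lower with this scaling too. The DESeq2 Wald test called 1 gene for AAV8-p21 against AAV8-null at 16 dpc (Spp1), 2 for AAV8-p21 at 16 dpc against 8 dpc (Cyp17a1 and Pigr) and 2 for the average over stages (Epcam and Spp1), with 1.17%, 6.69% and 1.75% of all genes. Voom called the same numbers there, with 0.961%, 14.9% and 2.11% of all genes, and 2 at 8 dpc against NP (Cyp17a1, adjusted p = 0.00187, and Sox9, adjusted p = 0.0134, limma), with 15.2% of all genes. With the compared groups alone, 1 gene (Cyp17a1) was called at 16 dpc against NP and 1 against 8 dpc (3.49% and 2.93% of all genes). Without a filter on low counts, 1 gene (Spp1) was called for the average (0.199%). Without the 3 libraries with the lowest correlation, chosen after seeing the data, the calls were 1 at 8 dpc against NP, 4 at 16 dpc against 8 dpc (Cyp17a1, Pigr, Sox9 and Spp1), 1 for AAV8-p21 against AAV8-null at 16 dpc and 1 for the average, with 5.04%, 16.4%, 2.18% and 1.23% of all genes in turn. The cause of these changes was not tested.

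Leaving out 1 library at a time, 0 to 1 genes were called at 16 dpc against NP (3.01% to 5.91% of all genes), 1 to 2 at 16 dpc against 8 dpc (2.08% without 8 dpc AAV8-null replicate 2 to 10.3% without replicate 3), 0 to 2 for AAV8-p21 at 16 dpc against 8 dpc (1.29% to 3.74%), 0 to 1 for AAV8-p21 against AAV8-null at 16 dpc (1 without library 4; 0.0242% to 0.283%), 0 at 8 dpc against NP (0% to 0.744%) and at 8 dpc between viruses (0.0161% to 0.307%), 0 for the interaction (0%) and 0 to 1 for the average (1 without library 4; 0.0403% to 0.42%). A filter of at least 10 counts in every library left no values for Sox9, Krt19, Krt7 and Epcam. Same-numbered libraries did not deviate together throughout (correlation of deviations −0.576 to 0.472), so the replicate block was not taken as a pairing. With it, on the 12 numbered libraries, the calls were 0 at 8 dpc against NP, 2 at 16 dpc against NP, 2 against 8 dpc and 0 between viruses at 8 dpc (0%, 5.44%, 5.43% and 0.0166% of all genes). No block could be fitted for the 16 dpc AAV8-p21 group, whose numbers are not matched. Counts were lowest for Krt7, Krt19, Sox9 and Epcam, which limits their precision.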
